A study of Homo sapiens with 6 samples.

Results

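The genes described here are the long intergenic noncoding RNA (lincRNA) genes of SW480 cells that carry a LINC symbol and were measured above a low limit. They were chosen by level, as rows of the count tables whose current symbol starts with LINC and whose CPM, a count divided by its library total and rescaled, reached 1 in at least 3 of 6 libraries. Of 63677 rows, 2109 carried a LINC symbol, 732 of those had at least 1 count, and 129 met the limit. The 129 genes hold 128 symbols, since LINC01605 is listed under 2 identifiers. Each gene was compared between cells made to express green fluorescent protein (GFP) and cells made to express POU5F1B, and was set beside the protein-coding gene nearest to it.

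Long intergenic noncoding RNAs are made by RNA polymerase II from genes that lie apart from coding genes, and are capped, mostly spliced and often polyadenylated, but lack a long open reading frame. Some act at the place where they are transcribed and alter the activity of a neighbouring gene, others act elsewhere in the cell as scaffolds or decoys for proteins and microRNAs, and for many no function is known. They are usually less abundant than messenger RNAs and vary more between tissues, and several LINC genes have been studied in colorectal carcinoma. A lincRNA and its neighbour can also share chromatin or a bidirectional promoter, so that levels of the pair are often examined together.

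SW480 is an established cell line from a human colorectal adenocarcinoma, and POU5F1B is a retrogene copy of the pluripotency factor gene POU5F1. The study asked which transcripts differ when POU5F1B is overexpressed, with GFP as the control. Both groups were the same line transduced with a lentiviral vector that carries its insert, with an HA tag, under a doxycycline-inducible promoter and a puromycin resistance gene, and both received 1 µg/mL doxycycline for 72 h, the GFP controls included. Each group had 3 libraries of polyadenylated RNA made with a stranded kit, and since nothing says that replicates came from separate cultures, the p-values measure the spread between these libraries, which may be technical.

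The libraries held 10767947 to 12787637 counts, and a floor of 3 counts, which covers counting error only, corresponded to 0.235 to 0.279 CPM. POU5F1B itself had 6, 5 and 1 counts in GFP replicates 1, 2 and 3 and 15027, 11393 and 1458 counts in POU5F1B replicates 1, 2 and 3. Replicate 3 of each group differed from its partners. POU5F1B replicate 3 had a lower transgene level. Its chi-square against POU5F1B replicates 1 and 2 was 17.5 to 20.9 per degree of freedom, and these differed from each other by 5.38. GFP replicate 3 had a chi-square of 78.7 to 89.5 per degree of freedom against GFP replicates 1 and 2, which differed from each other by 4.21. Of 10 colon epithelial markers, 6 were above 1 CPM in every library, while CDX1, LGALS4 and CEACAM5 were below 1 CPM in every library. Their summed level was 6228 to 8346 CPM in GFP and 7431 to 8713 CPM in POU5F1B libraries, most of it from KRT8 and KRT18. Single markers varied more, with 1030, 1174 and 5962 counts of EPCAM and 400, 396 and 836 of CDH1 with GFP against 4073, 3569 and 3029 and 2085, 1711 and 1181 with POU5F1B, and VIL1 had 274, 184 and 2420 counts with GFP and 543, 406 and 1332 with POU5F1B. Of 9 markers of blood, stromal and endothelial cells, 5 were below 1 CPM in every library, with CD68 at 0, but the summed level was 24 to 178 CPM in GFP and 18.5 to 25.8 CPM in POU5F1B libraries, mostly from COL1A1 in GFP replicates 1 and 2. The part of these differences in the lincRNA values below was not tested, and in bulk RNA fewer cells of a type and less RNA per cell cannot be told apart.

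The 129 genes drew few reads as a group, and together took 0.0544 to 0.0732% of the counts of a library. From here on, CPM values are on library sizes scaled by the trimmed mean of M values (TMM), and values of single libraries stand in the order of replicates 1, 2 and 3. The mean over 6 libraries ranged from 0.821 to 43.7 CPM with a median of 2.80 CPM, against a median of 24.4 CPM over all 14286 tested genes and 2.24 CPM over the 777 other tested genes annotated as lncRNA, none of these values being corrected for gene length. Of the 129, 87 reached the limit in all 6 libraries, 20 in 5, 11 in 4 and 11 in 3. LINC00665 and LINC02700 met it through the GFP libraries alone and LINC01169 through the POU5F1B libraries alone, so that for these 3 the rule itself favours a difference between the groups. The genes just inside the limit were LINC00920, LINC02482 and LINC00957, whose third-highest values were 1.01, 1.02 and 1.03 CPM, and those just outside were LINC01410 and LINC01357, each at 0.97 CPM, and LINC01270 at 0.95 CPM. All 129 passed the filter of the test on low counts.

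In the GENCODE annotation on GRCh37, the build of the files, 122 of the 129 were classed as lncRNA, 2 as lincRNA, 4 as transcribed unprocessed pseudogenes (LINC00674, LINC00680, LINC00888 and LINC01881) and 1 as a transcribed unitary pseudogene (LINC02210). The name intergenic did not hold for all of them, since 18 overlapped their nearest protein-coding gene. Exons of 33 overlapped exons of another listed gene on the opposite strand, and because the strand setting of the counting is not given in the sources used here, reads of such partners cannot be told apart. Among the genes named below this applies to LINC-PINT, LINC00511, LINC00513, LINC00649, LINC00662, LINC00665, LINC01089, LINC01116, LINC01128, LINC01588, LINC02482, LINC02577, LINC03033 and LINC03040.

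The 8 genes that took the most reads had means of 18.5 to 43.7 CPM. LINC00511, a long RNA studied in several carcinomas (chr17:70286232-70636611, minus strand), held the most reads but only 1.58 CPM per kilobase of annotated exon. LINC00963, LINC00649 and LINC02210 stood at 1.94, 1.93 and 1.53 CPM per kilobase. LINC02600 and LINC03040 reached 4.43 and 3.33 CPM per kilobase. Per length, these 6 genes thus stood between 1.53 and 4.43 CPM per kilobase. Higher values came out for LINC00674 with 137 and LINC00888 with 47.3 CPM per kilobase, but they rest on annotated exon lengths of 160 and 421 nt, and the annotation release that was counted is not given in the sources used here.

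Most of these genes overlapped between the groups. LINC02210 had 26.5, 27 and 22.2 CPM with GFP and 25.6, 22.2 and 19.6 CPM with POU5F1B. LINC00963, which has been studied in prostate and lung carcinoma, had 33.9, 29 and 16.2 CPM with GFP and 30.6, 27.4 and 26.2 CPM with POU5F1B. LINC00649, which overlaps the start of ATP5PO, a subunit gene of mitochondrial ATP synthase, had 27.9, 33.6 and 14.5 CPM with GFP and 30.7, 31 and 29.9 CPM with POU5F1B. For all 3 the groups overlapped, and in the latter pair the value that stood apart was the low one of GFP replicate 3. LINC00674 had 29, 31.3 and 13.1 CPM with GFP and 20.6, 23.1 and 14.2 CPM with POU5F1B. LINC00888 had 27.1, 29 and 13.9 CPM with GFP and 16.2, 18 and 15.2 CPM with POU5F1B. Both were higher in GFP replicates 1 and 2 than in every POU5F1B library, while GFP replicate 3 lay below every POU5F1B library. The log2 fold changes of these 5 genes ranged from -0.45 to 0.34, and their limma voom adjusted p-values from 0.605 to 0.865.

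None of the 129 lincRNA genes passed the threshold of the comparison by limma voom, which fits a weighted linear model to log2 CPM, with p-values adjusted over all tested genes by the Benjamini-Hochberg method. The threshold was an adjusted p under 0.05 with a fold change above 2, and 0.0% of all tested genes passed it. POU5F1B itself did not pass either, at 0.505, 0.381 and 0.087 CPM with GFP and 1182, 1056 and 121 CPM with POU5F1B. The absence of calls in this test therefore does not show that levels were unchanged. The edgeR quasi-likelihood test called 0 of the 129, against 0.0% of all genes, DESeq2 called 6, against 1.62%, and voom with sample quality weights called 17, against 7.54%. At an unadjusted p under 0.05 there were 19 members by voom, against 11.9% of all genes, and 18 by edgeR, against 12%. Of the 19, 7 were higher with POU5F1B, where 6.07% of all genes were, and 12 were lower, where 5.82% were. In 29 members the 3 GFP and the 3 POU5F1B values did not overlap. In 14 of them POU5F1B was higher, where 10.2% of all genes did so, and in 15 it was lower, where 9.24% did so, so that the shares lay near the background. The median log2 fold change, positive where POU5F1B was higher, was 0.09 over the members and -0.02 over all tested genes, with 72 members higher and 57 lower. The sign of this median depended on the libraries and members taken, since with replicates 1 and 2 only it was -0.13 over the members and -0.01 over all genes, and over the 87 members at the limit in all 6 libraries it was -0.01, with 43 higher and 44 lower.

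The members with the clearest separation are shown library by library in the plot of levels. With 3 libraries against 3, the smallest p that an exact permutation test allows is 0.10 for any one of them.

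**Figure D1:**
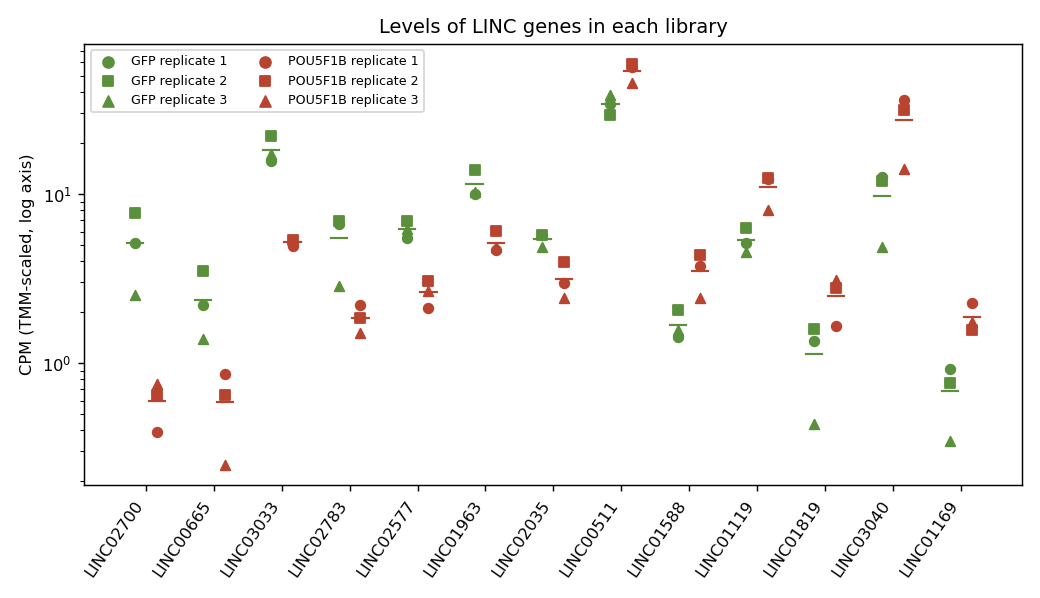
TMM-scaled CPM (log axis) of 13 LINC genes in each of 6 libraries, green for GFP and red for POU5F1B, with circles, squares and triangles for replicates 1, 2 and 3 and a short line at each group's mean. The genes are ordered by log2 fold change, from -2.94 for LINC02700 to 1.49 for LINC01169. They were chosen for a small voom p or, among members whose groups do not overlap, for a large difference. That the groups overlap in none of the 13 was therefore favoured by the choice.

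LINC03033 had the smallest adjusted p of the members. It is annotated at chr14:62037123-62125414, plus strand (GRCh37), and had 15.6, 21.9 and 17.1 CPM with GFP and 4.95, 5.38 and 5.24 CPM with POU5F1B. All POU5F1B values lay within a narrow range and below every GFP value, with GFP replicate 3 between the other two. Its means were 18.2 ± 3.31 CPM with GFP and 5.19 ± 0.216 CPM with POU5F1B (SD, n = 3), a log2 fold change of -1.80 with SE 0.22 and a limma voom adjusted p of 0.132. Its nearest protein-coding annotation, on the same strand, overlapped it and was not among the tested genes.

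LINC02700 was the member with the largest difference in either direction. It met the limit through the GFP libraries alone, lies at chr11:94371211-94386050, plus strand, and had 5.14, 7.69 and 2.52 CPM with GFP and 0.393, 0.649 and 0.749 CPM with POU5F1B, from 61, 101 and 29 counts against 5, 7 and 9. Every GFP library lay above every POU5F1B library, although the GFP values themselves ranged widely. The means were 5.12 ± 2.59 CPM with GFP and 0.597 ± 0.184 CPM with POU5F1B (SD, n = 3), a log2 fold change of -2.94 with SE 0.58 and a limma voom adjusted p of 0.207. LINC00665 (chr19:36750442-36822672, minus strand) likewise met the limit through the GFP libraries alone, with 2.19, 3.5 and 1.39 CPM with GFP and 0.865, 0.649 and 0.25 CPM with POU5F1B. The groups did not overlap, but the lowest of these values rests on 3 counts. It had a log2 fold change of -2.0 with SE 0.56 and a limma voom adjusted p of 0.285.

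LINC02783, LINC02577 and LINC01963 were also lower with POU5F1B. LINC02783 (chr1:17516278-17524112, plus strand) had 6.66, 6.93 and 2.87 CPM with GFP and 2.2, 1.85 and 1.5 CPM with POU5F1B, a log2 fold change of -1.47 with SE 0.44 and a limma voom adjusted p of 0.301. LINC02577 (chr7:106415401-106478925, plus strand) had 5.48, 6.93 and 6.18 CPM with GFP and 2.12, 3.06 and 2.66 CPM with POU5F1B, a log2 fold change of -1.25 with SE 0.25 and a limma voom adjusted p of 0.207. LINC01963 (chr2:217081768-217084915, plus strand) had 10.0, 13.9 and 10.3 CPM with GFP and 4.64, 6.02 and 4.83 CPM with POU5F1B, a log2 fold change of -1.14 with SE 0.24 and a limma voom adjusted p of 0.207. The spread within a group was small for LINC02577 and LINC01963 next to the gap between groups, whereas in LINC02783 GFP replicate 3 came close to the POU5F1B libraries. LINC02035 showed a smaller gap, with 5.73, 5.71 and 4.87 CPM with GFP and 2.99, 3.99 and 2.41 CPM with POU5F1B and a log2 fold change of -0.82 with SE 0.26 and a limma voom adjusted p of 0.317.

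Other members were higher with POU5F1B. LINC00511 had 34, 29.3 and 38.3 CPM with GFP and 56.5, 58.8 and 45.5 CPM with POU5F1B, and the means of 33.9 ± 4.52 CPM with GFP and 53.6 ± 7.07 CPM with POU5F1B (SD, n = 3) correspond to a log2 fold change of 0.66 with SE 0.17 and a limma voom adjusted p of 0.243. LINC01119 (chr2:47043836-47086148, plus strand) had 5.14, 6.32 and 4.52 CPM with GFP and 12.3, 12.4 and 8.08 CPM with POU5F1B, a log2 fold change of 1.01 with SE 0.27 and a limma voom adjusted p of 0.256. The values of POU5F1B replicate 3, the library with less transgene, were the lowest of their group for both genes and still above every GFP value. In LINC00665, LINC02783, LINC02035 and LINC01819 this library instead lay farthest from the GFP values, and a relation to transgene level was not tested. LINC03040 (chr6:43968317-43975349, plus strand) had 12.6, 12 and 4.87 CPM with GFP and 36.1, 31.6 and 14.2 CPM with POU5F1B, a log2 fold change of 1.47 with SE 0.50 and a limma voom adjusted p of 0.344. Here replicate 3 was low in both groups, and POU5F1B replicate 3 exceeded GFP replicate 1 only slightly.

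LINC01588, LINC01819 and LINC01169 had less than 5 CPM in every library and were higher with POU5F1B. LINC01588 had 1.43, 2.06 and 1.57 CPM with GFP and 3.77, 4.36 and 2.41 CPM with POU5F1B, a log2 fold change of 1.01 with SE 0.34 and a limma voom adjusted p of 0.338. LINC01819 had 1.35, 1.6 and 0.435 CPM with GFP and 1.65, 2.78 and 3.08 CPM with POU5F1B, a log2 fold change of 1.23 with SE 0.53 and a limma voom adjusted p of 0.425. LINC01169, which met the limit through the POU5F1B libraries alone, had 0.927, 0.762 and 0.348 CPM with GFP and 2.28, 1.58 and 1.75 CPM with POU5F1B, a log2 fold change of 1.49 with SE 0.42 and a limma voom adjusted p of 0.285. In LINC01819 and LINC01169 GFP replicate 3 was the lowest library, at 5 and 4 counts, and for LINC01819 the closest values of the groups, GFP replicate 2 and POU5F1B replicate 1, each rest on 21 counts.

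Promoter windows from RefSeq (GRCh38.p14, 250 bases before to 50 after the annotated start) are printed for 6 of these genes, the 3 with the most negative and the 3 with the most positive log2 fold changes among the members named above that have a single window, since these carry the comparison. The windows lie at chr11:94637793-94638092 on the plus strand for LINC02700, chr14:61570290-61570589 on the plus strand for LINC03033, chr1:17189539-17189838 on the plus strand for LINC02783, chr17:72640423-72640722 on the minus strand for LINC00511, chr2:46827614-46827913 on the plus strand for LINC01119 and chr6:44000335-44000634 on the plus strand for LINC03040. The sequences run 5′ to 3′ on the gene's strand, and capitals mark CG dinucleotides and the motif TATAAA.
LINC02700: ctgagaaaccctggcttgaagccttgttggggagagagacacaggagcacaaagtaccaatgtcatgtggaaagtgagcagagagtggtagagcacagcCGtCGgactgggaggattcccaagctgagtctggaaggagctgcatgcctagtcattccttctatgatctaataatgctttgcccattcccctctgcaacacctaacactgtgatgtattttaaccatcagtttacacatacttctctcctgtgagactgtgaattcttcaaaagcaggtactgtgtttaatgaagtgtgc
LINC03033: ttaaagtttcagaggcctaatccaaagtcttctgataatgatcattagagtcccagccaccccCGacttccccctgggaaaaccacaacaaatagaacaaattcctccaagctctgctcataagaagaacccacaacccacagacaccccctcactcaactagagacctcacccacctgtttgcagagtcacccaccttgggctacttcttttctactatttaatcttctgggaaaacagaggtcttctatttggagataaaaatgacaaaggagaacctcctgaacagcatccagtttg
LINC02783: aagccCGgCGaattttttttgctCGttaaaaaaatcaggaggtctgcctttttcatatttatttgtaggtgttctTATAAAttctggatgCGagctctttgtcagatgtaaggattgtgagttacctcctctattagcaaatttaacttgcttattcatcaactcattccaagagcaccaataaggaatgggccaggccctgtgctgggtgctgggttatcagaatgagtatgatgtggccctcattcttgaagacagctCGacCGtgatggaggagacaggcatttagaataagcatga
LINC00511: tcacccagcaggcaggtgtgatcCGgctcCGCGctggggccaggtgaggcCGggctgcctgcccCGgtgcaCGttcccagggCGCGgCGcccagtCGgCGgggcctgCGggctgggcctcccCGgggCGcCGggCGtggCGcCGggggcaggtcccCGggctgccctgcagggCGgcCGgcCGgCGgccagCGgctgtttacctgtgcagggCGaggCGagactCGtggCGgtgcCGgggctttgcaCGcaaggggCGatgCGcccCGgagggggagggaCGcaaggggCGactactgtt
LINC01119: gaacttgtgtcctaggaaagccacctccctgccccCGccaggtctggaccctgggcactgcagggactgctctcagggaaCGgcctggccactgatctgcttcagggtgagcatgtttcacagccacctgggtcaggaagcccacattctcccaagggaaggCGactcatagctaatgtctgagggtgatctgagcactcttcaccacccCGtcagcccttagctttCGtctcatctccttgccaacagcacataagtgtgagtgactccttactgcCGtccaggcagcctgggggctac
LINC03040: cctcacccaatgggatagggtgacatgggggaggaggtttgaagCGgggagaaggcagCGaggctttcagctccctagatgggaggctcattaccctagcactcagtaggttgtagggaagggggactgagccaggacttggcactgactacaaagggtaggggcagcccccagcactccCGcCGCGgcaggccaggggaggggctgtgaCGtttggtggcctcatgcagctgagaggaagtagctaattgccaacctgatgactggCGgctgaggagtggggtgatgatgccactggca
LINC00511 has a window dense in CG, with 35 dinucleotides, while the other 5 hold between 1 and 7, and the 3 lower genes hold 2, 1 and 6. LINC02783 is the only one of the 6 with TATAAA.

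Over all members, 91 of 128 symbols matched RefSeq windows, 113 in number because some genes have several. The median window held 15 CG dinucleotides, against 14 over all 35116 windows of the table. TATAAA, searched on both strands (reverse TTTATA), was in 17 windows or 15.0%, against 11.5% of all windows. The octamer ATGCAAAT, the element that POU factors are known to bind (reverse ATTTGCAT), was in 3 windows or 2.65%, against 1.77% of all, and these belonged to LINC02863 and, in a pair of windows, LINC00641. None of the 6 windows printed above holds it. A match is no more than the letters of the window.

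Both replicate 3 libraries were then set aside, since they differ from their partners. With replicates 1 and 2 only, 17 of the 129 members passed the threshold by limma voom, against 8.36% of all tested genes. POU5F1B was higher in 3, where 3.21% of all genes were called, and lower in 14, where 5.15% were. The 3 higher genes were LINC03040, LINC01588 and LINC01119, with log2 fold changes of 1.45, 1.19 and 1.10. The lower genes were led by LINC02700, LINC01116, LINC03033 and LINC00665, with -3.57, -2.82, -1.86 and -1.84. The 10 others were LINC02982, LINC02783, LINC00491, LINC02950, LINC02577, LINC00847, LINC01224, LINC01963, LINC01089 and LINC01124, of which LINC02982, LINC02950, LINC00847, LINC01224 and LINC01124 were named after their values were seen. This fit rests on 2 libraries against 2.

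The replicate 3 libraries, which that fit did not use, were then read for these 17 genes. In 13 of the 17 the difference between POU5F1B replicate 3 and GFP replicate 3 had the same sign, and in 6 it exceeded 2-fold in that direction. Over all tested genes past the threshold in replicates 1 and 2 these shares were 53.5 and 18.1%. For LINC02700 and LINC00665 the sign in replicate 3 was fixed by the member rule, as they met the limit in every GFP and no POU5F1B library, and without them the counts were 11 and 4 of 15. The 6 were LINC02700, LINC00665, LINC03033, LINC02577, LINC01963 and LINC03040, with log2 differences of -1.55, -1.90, -1.68, -1.16, -1.06 and 1.51. The 4 with the opposite sign were LINC01116, LINC02982, LINC01124 and LINC02950. Over all 129 members, 67 or 51.9% had the same sign in both, against 47.4% of all tested genes, and the correlation across genes was 0.332, where genes are not independent replicates. Between the differences of replicates 1 and of replicates 2 it was 0.766.

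**Figure D2:**
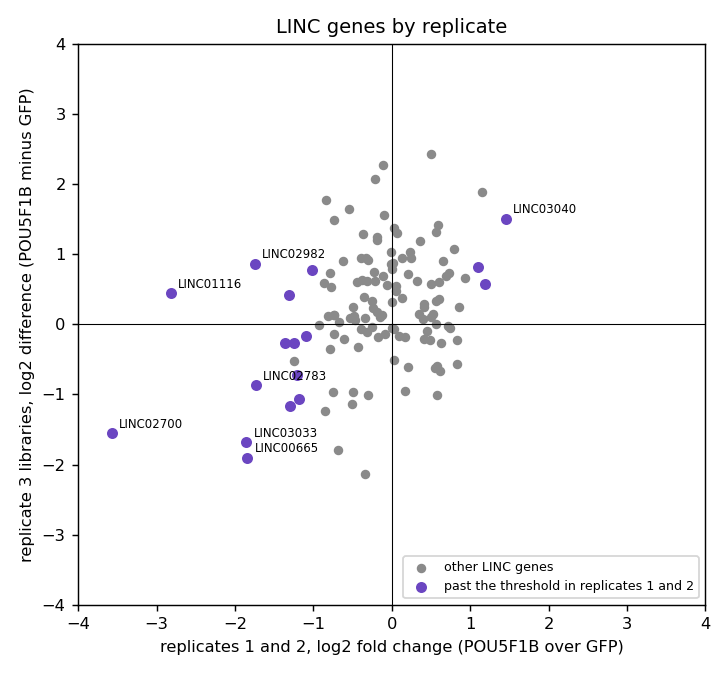
Log2 fold change of POU5F1B over GFP in replicates 1 and 2 (horizontal axis) and log2 difference between the replicate 3 libraries (vertical axis), 1 point per LINC gene, with the 17 genes past the threshold in replicates 1 and 2 in purple. Of these 17, 13 have the same sign on both axes, and LINC01116, at -2.82 and 0.44, is the purple point farthest to the left among the 4 with opposite signs.

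LINC01116 shows most plainly how replicate 3 altered a value. It lies at chr2:177476165-177502659, minus strand, and has been studied as a tumour-associated lincRNA. It had 7.84, 6.7 and 1.91 CPM with GFP and 0.786, 1.3 and 2.66 CPM with POU5F1B. In replicates 1 and 2 it was far lower with POU5F1B, whereas in replicate 3 the POU5F1B library was the higher one. Over all 6 libraries its log2 fold change of -1.73 with SE 0.71 and a limma voom adjusted p of 0.409 had one of the wider errors among the genes named. Leaving out GFP replicate 3 alone brought 9 members past the threshold, against 4.16% of all genes. All 9 were lower with POU5F1B, where 2.78% of all genes were called, and they were LINC02700, LINC01116, LINC00665, LINC02783, LINC03033, LINC02577, LINC02950, LINC01963 and LINC00847. All of them were among the 17.

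The members were not displaced evenly in GFP replicate 3. It was the lowest of the 6 libraries for 57 members or 44.2%, against 29.2% of all tested genes and 35.9% of the other lncRNA genes, and the highest for 21 or 16.3%, against 34.6% of all. The median ratio of this library to the mean of the other 5 was 0.756 over the members, 0.890 over the other lncRNA genes and 1.01 over all genes. Among the 87 members that reached 1 CPM in every library it was 0.911, and the library was lowest for 31 or 35.6% of them. The rule allows a member to be low in a single library, and the comparison with other lncRNA genes was chosen after these values were seen. As a description of the spread, the median ratio of SD to mean over members was 35.1% within GFP and 20.3% within POU5F1B, against 22.1% and 12.9% over all genes. It was 29.6 and 22.5% over the other lncRNA genes and 25.6 and 16.8% over the 87 members at the limit in every library.

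**Figure D3:**
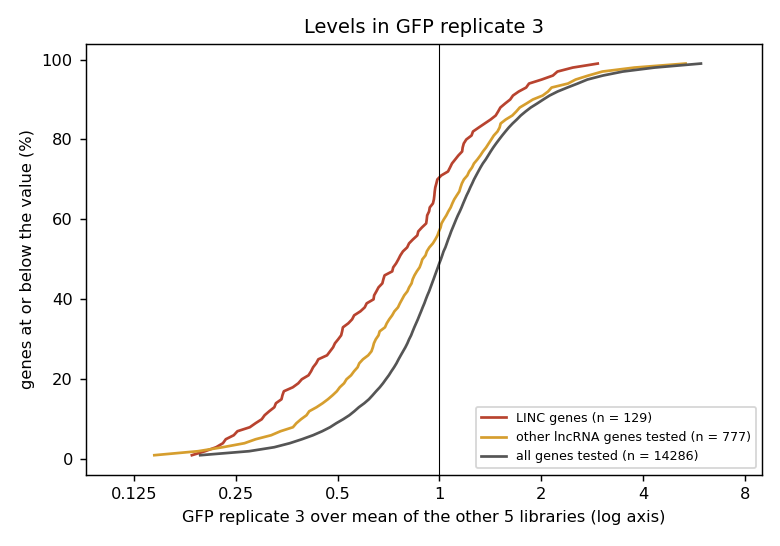
Percentage of genes (vertical axis) at or below a given ratio of GFP replicate 3 to the mean of the other 5 libraries (log horizontal axis), from the 1st to the 99th percentile, for 129 LINC genes, 777 other lncRNA genes and 14286 tested genes. The LINC curve crosses 50% at 0.756, left of the other lncRNA genes at 0.890 and of all genes at 1.01.

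The lowest ratios belonged to LINC02482, LINC00513 and LINC01992. LINC01992 had 11.2, 6.63 and 1.57 CPM with GFP and 7.71, 7.14 and 7.16 CPM with POU5F1B. LINC00513 had 1.77, 1.98 and 0.348 CPM with GFP and 1.57, 1.95 and 2.33 CPM with POU5F1B. LINC02482, at 2 counts in this library, had 1.6, 1.3 and 0.174 CPM with GFP and 0.944, 0.649 and 0.999 CPM with POU5F1B. In each, GFP replicate 3 was far below the other 5 libraries. Those 5 overlapped between the groups for LINC01992 and LINC00513, while for LINC02482 GFP replicates 1 and 2 lay above every POU5F1B library. The highest ratios belonged to LINC00973, LINC01881 and LINC00237. LINC00973 had 3.29, 2.36 and 9.05 CPM with GFP and 1.18, 2.04 and 3.75 CPM with POU5F1B. LINC00237 had 2.11, 1.9 and 4.18 CPM with GFP and 1.18, 1.3 and 1.08 CPM with POU5F1B. Of the 6 genes with extreme ratios, LINC00237 was thus the one whose groups did not overlap, with a log2 fold change of -1.08 with SE 0.40 and a limma voom adjusted p of 0.357, and its difference between replicates 1 and 2 alone was -0.69.

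Of the 129 genes, 100 had a nearest protein-coding gene that was itself tested, 94 distinct neighbours in all, while 23 neighbours did not pass the filter and 6 were not in the tables. Genes that did not overlap their neighbour lay at a median of 16489 nt from it, with a range from 84 to 1411314 nt, and 25 lay within 5 kb. Per kilobase of exon the lincRNA was the lower of the pair in 86 of 100, with medians of 0.886 CPM per kilobase for the lincRNA and 6.88 CPM per kilobase for the neighbour, and a median ratio within pairs of 8.64. Differences between groups were somewhat larger for the lincRNA, with a median absolute log2 fold change of 0.37 against 0.26. The lincRNAs also drew fewer reads, with a median of 2.80 CPM over the members and 35.1 CPM over their neighbours. Counting error is larger at low counts, and its part in this difference was not tested.

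The lincRNA and its neighbour had the same sign of log2 fold change in 55 of 100 pairs, against 59.4% of 10020 gene and neighbour pairs over all tested genes. Both were higher in 30 and both lower in 25, the lincRNA alone was higher in 25 and the neighbour alone in 20. Leaving out one library at a time gave between 50 and 65 pairs. Across the 100 pairs Pearson's r was 0.454 and Spearman's rank correlation 0.358, with r at 0.245 over all pairs, and as both values of a pair come from the same 6 libraries this is a description only. The 30 pairs that overlapped or lay within 5 kb had the same sign in 17 and an r of 0.540, and the 70 more distant pairs in 38 with an r of 0.425. By arrangement, the same sign was found in 18 of 28 divergent pairs, 27 of 52 pairs on the same strand, 6 of 11 convergent pairs, 4 of 7 that overlapped on opposite strands and neither of 2 that overlapped on the same strand.

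**Figure D4:**
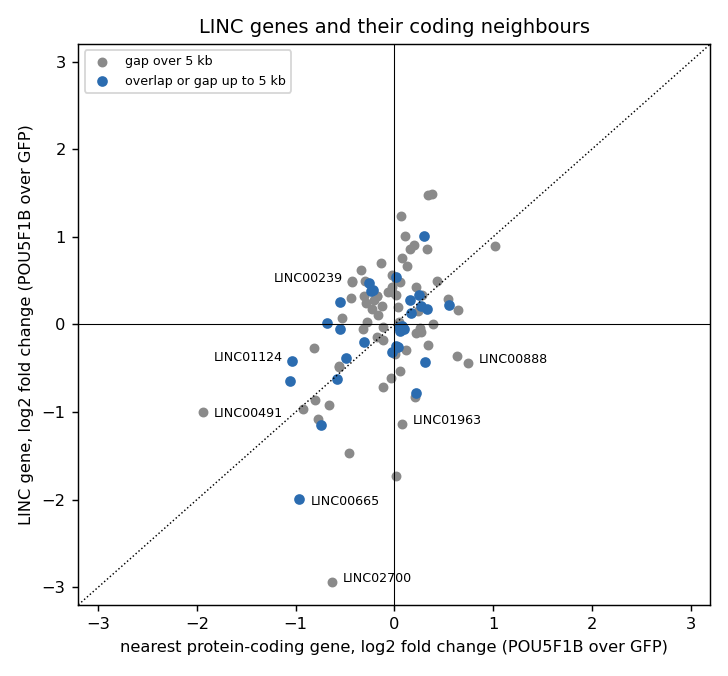
Log2 fold change (POU5F1B over GFP) of the nearest protein-coding gene (horizontal axis) and of the LINC gene (vertical axis) for 100 pairs, with pairs that overlap or lie within 5 kb in blue. The dotted line marks equal change, 55 points have the same sign on both axes, and labelled points are LINC genes named in the text.

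In 3 of the 100 pairs both genes had an unadjusted voom p under 0.05, and in each of the 3 the signs were the same. The matching share over all 10020 pairs was not computed, so this count is a description only. Of all tested genes, 11.9% had such a p. LINC00491 (chr5:101939924-102007469, minus strand) is divergent from PAM, which encodes an enzyme that amidates peptide hormones, with starts 82.2 kb apart. LINC00491 had 4.04, 2.82 and 3.74 CPM with GFP and 1.57, 1.02 and 3.08 CPM with POU5F1B. PAM had 924, 771 and 860 CPM with GFP and 164, 173 and 386 CPM with POU5F1B. PAM was lower in every POU5F1B library, with a log2 fold change of -1.93 with SE 0.31 and a limma voom adjusted p of 0.185, and LINC00491 was lower in replicates 1 and 2 but overlapped through POU5F1B replicate 3. LINC00665, for which the member rule favours a difference, lies 2.68 kb from ZFP14, a zinc finger gene on the same strand. ZFP14 had 5.14, 5.87 and 6.09 CPM with GFP and 2.99, 2.87 and 2.83 CPM with POU5F1B, a log2 fold change of -0.96 with SE 0.22 and a limma voom adjusted p of 0.22. LINC03040 lies 106 kb from MRPL14, which encodes a protein of the mitochondrial ribosome and had 39.3, 38.9 and 35.7 CPM with GFP and 45.8, 46.6 and 52.3 CPM with POU5F1B, a log2 fold change of 0.34 with SE 0.13 and a limma voom adjusted p of 0.363. ZFP14 and MRPL14 did not overlap between the groups, and both gaps were smaller than those of the lincRNAs.

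Some divergent genes start close to each other. LINC00205 starts 0.137 kb from POFUT2, which encodes a fucosyltransferase, and had a log2 fold change of 0.54 against 0.01. LINC01124 starts 0.77 kb from SP5, a zinc finger gene known as a target of Wnt signalling. LINC01124 had 12, 9.68 and 5.74 CPM with GFP and 5.82, 4.82 and 9.99 CPM with POU5F1B. SP5 had 60.2, 53.5 and 38.4 CPM with GFP and 19, 19.8 and 38 CPM with POU5F1B. Both were lower with POU5F1B in replicates 1 and 2, whereas the 2 replicate 3 libraries were level for SP5 and the POU5F1B one was higher for LINC01124. LINC02600 and ADRA2C, an adrenergic receptor gene 2.96 kb away, were both highest in GFP replicate 3 and lowest in POU5F1B replicate 2. LINC02600 had 20.5, 19.6 and 31.8 CPM with GFP and 12.8, 10.6 and 24.9 CPM with POU5F1B. ADRA2C had 39.8, 41.6 and 46.4 CPM with GFP and 30.4, 19.5 and 37.7 CPM with POU5F1B. Their log2 fold changes were -0.62 and -0.58. LINC00205 and LINC01124 were named after their values were seen.

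To ask whether a lincRNA differed apart from its neighbour, the log2 ratio of the pair was compared between groups within libraries. No ratio of the 100 passed the threshold by limma, as none of 10020 pairs did (0.0%), and 13 had an unadjusted p under 0.05 against 11.0% of all pairs. The ratios of the groups did not overlap in 16 pairs, where 18.4% of all pairs did so. With replicates 1 and 2 only, 11 ratios passed, against 11.1% of all pairs, 5 higher and 6 lower with POU5F1B where 5.45 and 5.64% of all pairs were. Without GFP replicate 3 there were 6, against 4.74%. In each of these counts the members were near the background.

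LINC01963 and XRCC5 had the smallest adjusted p of the ratios. XRCC5, which encodes a subunit of the Ku complex of DNA end joining, lies 10.7 kb away on the same strand and had 749, 698 and 749 CPM with GFP and 759, 840 and 716 CPM with POU5F1B. The groups overlapped for XRCC5 but not for LINC01963, and the log2 ratio was -6.20, -5.63 and -6.17 with GFP and -7.30, -7.08 and -7.16 with POU5F1B, a difference of -1.19 ± 0.20 (SE; limma adjusted p = 0.145).

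LINC00239, LINC00888 and LINC00491 were also among the 5 leading ratios. LINC00239 had 2.02, 1.68 and 3.05 CPM with GFP and 3.3, 3.34 and 2.58 CPM with POU5F1B. Its neighbour PPP2R5C, a regulatory subunit gene of protein phosphatase 2A, had 222, 236 and 298 CPM with GFP and 174, 188 and 195 CPM with POU5F1B. PPP2R5C did not overlap between the groups and was lower with POU5F1B, so that the ratio differed by 0.89 ± 0.24 (SE; limma adjusted p = 0.281) although LINC00239 alone overlapped. For LINC00888 and MCF2L2, a guanine nucleotide exchange factor gene, the ratio was 3.48, 2.82 and 3.10 with GFP and 1.82, 1.86 and 2.25 with POU5F1B, a difference of -1.16 ± 0.31 (SE; limma adjusted p = 0.284). For LINC00491 and PAM the ratio was higher with POU5F1B by 0.98 ± 0.22 (SE; limma adjusted p = 0.254), with PAM lower by more than the lincRNA.

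A list of 30 LINC genes studied in colorectal and other carcinomas had 14 members within the limit. None passed the threshold, 3 had an unadjusted voom p under 0.05, against 11.9% of all tested genes, and in 3 the groups did not overlap, against 19.4%. LINC00511, given above, and LINC01128 were higher with POU5F1B, the latter with 11.9, 11.5 and 15.9 CPM with GFP and 17.3, 16.8 and 17.7 CPM with POU5F1B and a log2 fold change of 0.42 with SE 0.19 and a limma voom adjusted p of 0.437. LINC01089, described as a suppressor of metastasis, had 6.49, 5.87 and 4.87 CPM with GFP and 3.15, 2.6 and 4.33 CPM with POU5F1B. It was lower in every POU5F1B library, with a log2 fold change of -0.79 with SE 0.27 and a limma voom adjusted p of 0.349. LINC01116 is the other gene with a p under 0.05, although its groups overlapped.

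The rest of the list overlapped between the groups. LINC-PINT, known as a p53-induced transcript, was the steadiest, with 7.5, 7.39 and 6.18 CPM with GFP and 6.68, 6.86 and 6.66 CPM with POU5F1B and a log2 fold change of -0.06 with SE 0.19 and a limma voom adjusted p of 0.938. LINC00467 had 5.05, 6.7 and 7.14 CPM with GFP and 6.29, 9.18 and 7.91 CPM with POU5F1B. LINC00941 had 2.95, 2.67 and 3.31 CPM with GFP and 5.11, 4.17 and 3.25 CPM with POU5F1B. Both were slightly higher in mean with POU5F1B. LINC00265 had means of 3.67 ± 0.655 CPM with GFP and 3.49 ± 0.955 CPM with POU5F1B (SD, n = 3). LINC01315 had means of 2.47 ± 0.854 CPM with GFP and 2.5 ± 0.355 CPM with POU5F1B (SD, n = 3). In LINC00659, LINC01234 and LINC01503, GFP replicate 3 was the lowest library, at 1.04, 1.91 and 1.22 CPM against at least 2.36, 3.83 and 2.41 CPM elsewhere. LINC00662 was the reverse, at 13.1 CPM in that library and at most 7.04 CPM in the others.

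Well-known lncRNA genes without a LINC symbol were read beside the members. Of a list of 44, 33 were tested and 0 passed the threshold by voom. An unadjusted voom p under 0.05 was found in 12 or 36.4%, 7 higher and 5 lower, against 11.9% of all tested genes. The groups did not overlap in 13 or 39.4%, against 19.4%. The list was picked by name and is not a sample of lncRNA genes. Over the 777 other tested genes annotated as lncRNA these shares were 11.2 and 19.7%. The median level was 35.2 CPM on the list and 2.24 CPM over those 777. NORAD, which binds PUMILIO proteins, was level, with 536.5 ± 7.63 CPM with GFP and 534 ± 22.3 CPM with POU5F1B (SD, n = 3). MALAT1, a nuclear RNA, had 59.7, 96.5 and 250.4 CPM with GFP and 52, 52.7 and 53.9 CPM with POU5F1B, so that GFP replicate 3 was far above the rest. CYTOR was higher with POU5F1B in every library, at 52.6, 59 and 39.4 CPM against 71.3, 82.7 and 76.8 CPM.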

How the data were processed

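RNA of SW480 cells with inducible GFP or POU5F1B was sequenced, with 3 libraries per group assigned by their titles. The deposited files hold whole-number read counts per Ensembl gene, 1 table per library and no normalization. To make these counts, the authors aligned reads to hg19 with HISAT2, kept uniquely mapped reads and counted them with featureCounts against genes and transposable elements together. Uniquely mapped reads lose genes that share sequence with a copy, and the strand setting and gene annotation release are not given in the sources used here.

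Symbols came from a table that matched 87.4% of the 63677 identifiers, so LINC genes among the 8012 others were not analysed here. The members, gene lists, tests and alternatives were chosen with earlier results of these data known. Depth was 10767947 to 12787637 counts per library. Genes were kept by filterByExpr of edgeR 4.0.16 (14286 genes), scaled by TMM and fitted over the whole table with voom and limma 3.58.1 (R 4.3.3) with no block term, since the study's methods name voom. Alternatives were the quasi-likelihood test of edgeR, DESeq2 1.42.0, sample quality weights, DESeq2 size factors or total counts, a fit with no filter, replicate number as block, a limit of 1.2-fold inside the test, replicates 1 and 2 only, each library left out, stricter member rules, and other choices of neighbour and prior count.

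The nearest protein-coding gene was the one with the smallest gap between gene bodies in GENCODE on GRCh37, the same build as hg19, on any strand. The log2 ratio of a gene to its neighbour (log2 CPM, prior count of 2) was fitted with limma and an intensity trend over 10020 pairs. Exonic lengths came from the same annotation, which may differ from the models counted. The tests were checked on simulated counts with planted differences. No simulated library was made to stand apart as GFP replicate 3 did, so the check does not cover this feature of the data. Genes named were the 8 with the highest mean, the 10 with the smallest voom p, the 5 largest differences in each direction whose groups did not overlap, the 3 highest and 3 lowest ratios of GFP replicate 3 to the other libraries, the 5 pairs with the smallest ratio p, the genes at the CPM limit and the members of the list of 30. Replicate numbers were not used to pair libraries in the main fits. Nothing in the sources used here says that libraries of the same number belong together, so differences between them are descriptions only. The ratio of 1 of these 5 pairs is not reported here.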

Additional observations from a re-analysis of the deposited data

How the results depend on the processing

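The absence of members past the threshold held with the edgeR quasi-likelihood test, DESeq2 size factors, total counts, no filter, the 1.2-fold limit and the stricter member rules, each with 0. DESeq2 called 6 members (1 higher and 5 lower with POU5F1B), sample quality weights 17 (5 and 12) and replicates 1 and 2 only 17 (3 and 14). Of the last 17, 15 were shared with the weighted fit and 6 with DESeq2. The quality weights were 0.111 for GFP replicate 3 and 0.575 for POU5F1B replicate 3, against 1.23 to 2.79 for the other libraries. The weighted fit thus leans on the same libraries, and the overlap of 15 was favoured in advance. Leaving out one library gave 0 to 9, the 9 without GFP replicate 3. Ratios to the neighbour past the threshold numbered 11 with replicates 1 and 2 only and 0 to 6 with one library left out, the 6 without GFP replicate 3. The cause of these differences was not tested. The deviations of libraries with the same number had correlations of 0.242, 0.0883 and 0.165, and 4 of 6 libraries correlated best with their own number. With the replicate number as a block, 0 members and 0 ratios were past the threshold. At an unadjusted limma p under 0.05 there were 23 members, against 1697 of 14286 tested genes, and 14 ratios, against 1163 of 10020 pairs. With this block 55 pairs shared a sign, against 5964 of 10020. Members whose groups did not overlap numbered 29 with DESeq2 size factors, against 2765 of 14286 tested genes. With total counts they numbered 31 (17 higher and 14 lower), against 2795 of 14286. Named genes followed through 15 settings numbered 17, and in these no direction reversed, 221 values stayed on their side of the threshold and 34 newly passed it. They were the genes with the smallest voom p or ratio p or the largest differences without overlap. As they were chosen from these same data, steady directions were favoured in advance. They are not the 17 called with replicates 1 and 2 only, and LINC01116 is not among them. Counts as low as 2 to 5 in a library limit the precision of the weakest members.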
